A study of Mus musculus with 6 samples.

Results

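The Hox genes are the homeobox transcription factor genes that lie side by side in 4 clusters, HoxA to HoxD. Methylation was described at every position that the deposited tables list within 2000 bp of the GRCm38 span of a protein-coding gene whose symbol begins with Hoxa, Hoxb, Hoxc or Hoxd and a number. Of the 39 genes that meet this rule 38 are reported, out of 21887 protein-coding genes. Their windows held 1005 of the 448072 positions listed in any library, and 190 of the 1005 lay in more than 1 Hox window. Every one of the 38 genes had at least 2 distinct listed positions over the 5 libraries, and 36 had 3 or more. All 38 symbols were found in the RefSeq gene table. The HoxA genes lay on chromosome 6 (chr6:52162417-52260880, 10 genes, minus strand), the HoxB genes on chromosome 11 (chr11:96194316-96368254, 10 genes, plus strand), the HoxC genes on chromosome 15 (chr15:102921131-103036856, 9 genes, plus strand) and the HoxD genes on chromosome 2 (chr2:74668225-74765142, 9 genes, plus strand).

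Hox proteins give cells their position along the head to tail axis of the embryo and, for the posterior groups, along the limbs and genital tract. Within a cluster all genes are read in the same direction, and their order on the chromosome follows where they act: the low-numbered genes at the 3′ end act in the hindbrain and neck, the high-numbered genes at the 5′ end in the trunk, limbs and tail. Genes with the same number in different clusters are paralogues. In pluripotent cells the clusters are held silent by Polycomb proteins, their many CpG islands carry little DNA methylation, and retinoic acid and Cdx factors open them in order during differentiation. Hox proteins bind DNA together with TALE cofactors such as Pbx and Meis.

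The series measured cytosine methylation by reduced representation bisulfite sequencing, which reads CpG-rich fragments, in 6 cultured mouse lines that all carry the OG2 strain label, a strain whose cells hold a green fluorescent reporter driven by Pou5f1 regulatory DNA. The lines were germline stem cells (GSC, 1 line), the form that spermatogonial stem cells take in culture; induced pluripotent stem cells (iPSC, 2 independent lines), which the series title ties to reprogramming by transcription factors and the design text derives from GSC; pluripotent stem cells of germline origin (gPSC, also 2 independent lines); and 1 line of embryonic stem cells (ESC). No ages, passages or further treatments are given in the labels. The 5 other lines have 1 table each of positions methylated more (hyper) and less (hypo) than a reference. The tables do not name that reference, and ESC, the line without tables, was assumed to be it. A listed position has q of at most 0.01 and differs by at least 25 percentage points. A position that is not listed can be unchanged or unmeasured, and the read depth behind a value is unknown. All 5 comparisons share the reference library, so a feature of that library enters every one of them, and GSC and ESC are 1 line each. The tables hold no expression, so the identity of the lines was not checked against marker genes.

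The promoter sequences show where in the clusters these calls fall and how close together they lie. RefSeq promoter sequences of GRCm38.p6 were at hand for 22 of the 38 genes (24 sequences, some genes having more than 1 start), and 9 of the 24 held a listed position. All 52 listed positions in them whose neighbouring bases were known lay on a CpG. The median number of CpGs in the 300 bases around the start was 14.5 in the Hox promoters and 7 in all 32851 promoters. The letters CCGG, searched on both strands (they read the same on each), were found in 79.2% of the Hox promoters and in 52.8% of all promoters of that length. The 250 bases upstream of 4 starts are printed below 5′ to 3′ on the gene's own strand, in lower case, with each CpG that was listed in any library in capitals. Hoxd11, a forearm patterning gene, is shown for its dense calls (chr2:74682073-74682322, plus strand, 10 of 20 CpGs listed). Hoxd1, which acts in sensory neurons, is shown for hypo calls in GSC and mostly hyper calls in iPSC 2 (chr2:74762730-74762979, plus strand, 6 of 24 CpGs). GSC and iPSC 2 shared no listed base in the Hoxd1 stretch. Hoxa5, a gene of the neck and lung, is shown for calls of both directions (chr6:52204588-52204837, minus strand, 5 of 28 CpGs), and Hoxb8 for calls that are all hyper (chr11:96281655-96281904, plus strand, 3 of 12 CpGs).
Hoxd11: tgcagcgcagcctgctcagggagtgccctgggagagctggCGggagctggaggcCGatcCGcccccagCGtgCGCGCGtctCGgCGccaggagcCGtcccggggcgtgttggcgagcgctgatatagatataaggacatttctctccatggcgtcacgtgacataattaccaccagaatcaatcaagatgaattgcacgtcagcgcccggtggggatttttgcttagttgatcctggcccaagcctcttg
Hoxd1: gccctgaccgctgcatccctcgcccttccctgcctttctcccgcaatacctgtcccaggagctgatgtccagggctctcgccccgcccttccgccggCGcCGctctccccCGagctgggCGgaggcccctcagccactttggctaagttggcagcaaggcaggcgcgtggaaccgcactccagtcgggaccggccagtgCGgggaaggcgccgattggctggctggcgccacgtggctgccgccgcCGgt
Hoxa5: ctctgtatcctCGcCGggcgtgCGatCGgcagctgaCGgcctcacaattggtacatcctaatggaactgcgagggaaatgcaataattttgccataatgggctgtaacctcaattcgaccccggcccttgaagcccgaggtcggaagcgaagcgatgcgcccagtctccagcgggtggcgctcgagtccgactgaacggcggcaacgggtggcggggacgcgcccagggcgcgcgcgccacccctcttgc
Hoxb8: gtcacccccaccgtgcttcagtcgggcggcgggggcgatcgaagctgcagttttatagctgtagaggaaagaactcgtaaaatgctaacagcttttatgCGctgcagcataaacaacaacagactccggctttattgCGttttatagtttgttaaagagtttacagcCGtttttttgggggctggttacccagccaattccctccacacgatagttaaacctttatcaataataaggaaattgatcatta

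In the Hoxd11 stretch, GSC listed 9 hyper positions, between 26.9 and 38.4 points above the reference, and 9 hypo positions, between 31.2 and 29.4 points below it. iPSC 1 and gPSC 2 listed 1 position each way, of 46.7 and -46.7 points and of 37.1 and -37.1 points. iPSC 2 listed 2 hypo positions, and gPSC 1 listed none. Hyper and hypo calls in this stretch therefore lay base by base beside each other. The Hoxd1 stretch held 4 hypo positions in GSC, all between -53.4 and -52.7 points, and in iPSC 2 it held 2 hyper positions of 48.6 and 50.7 points and 1 hypo position of -34.5 points. It held no listed position in the other 3 libraries. In the Hoxb8 stretch the listed differences were 100 points in GSC, 73.3 points at both positions of iPSC 1 and 100 points in iPSC 2, while neither gPSC line had a listed position there. The Hoxa5 stretch had 1 hyper and 2 hypo positions in GSC, 4 and 1 in iPSC 1, 0 and 1 in iPSC 2, 4 and 3 in gPSC 1, and 1 and 1 in gPSC 2.

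Counted over all 38 windows, the Hox clusters carried listed differences in both directions in every library. GSC had 252 hyper and 173 hypo positions, iPSC 1 had 107 and 111, iPSC 2 had 205 and 144, gPSC 1 had 134 and 119, and gPSC 2 had 136 and 94. GSC listed the most positions of both kinds, and in hyper positions the 2 iPSC lines lay on either side of both gPSC lines. The mean number of hyper positions was 156 ± 69.3 (SD, n = 2) in iPSC and 135 ± 1.41 (SD, n = 2) in gPSC, and that of hypo positions 127.5 ± 23.3 (SD, n = 2) and 106.5 ± 17.7 (SD, n = 2). The difference between the 2 kinds of line was smaller than the spread between the iPSC lines. Per kb of window, listed positions numbered 1.13 in GSC, 0.579 and 0.927 in iPSC 1 and iPSC 2, and 0.672 and 0.611 in gPSC 1 and gPSC 2. The windows of all protein-coding genes held between 0.0808 per kb (iPSC 1) and 0.154 per kb (GSC). The assay reads CpG-rich fragments and the Hox promoters are rich in CpG, and the part of this in the density was not tested.

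The direction of the Hox calls was less one-sided than elsewhere. The share of listed Hox positions that were hyper was 59.3% in GSC, 49.1% and 58.7% in iPSC 1 and iPSC 2, and 53.0% and 59.1% in gPSC 1 and gPSC 2. Over the windows of all protein-coding genes the share was 77.0%, 74.9%, 71.8%, 74.9% and 81.7% in the same order, so the Hox share was lower in each of the 5 libraries. The mean of the listed Hox differences was 11.2 points in GSC, -0.682 and 7.49 in iPSC 1 and iPSC 2, and 1.99 and 6.91 in gPSC 1 and gPSC 2, against 26.1 to 37.1 points over all gene windows. Of the Hox genes with any listed position in a library, between 60.6% (gPSC 2) and 80.6% (iPSC 2) had both directions, and among all genes between 38.4% and 54.9% did, where longer genes have more room for both.

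**Figure D1:**
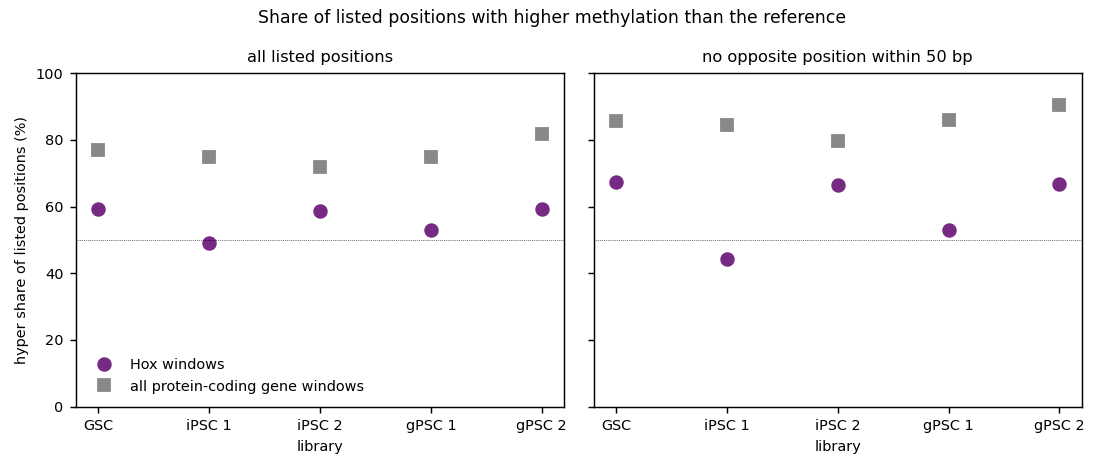
Share of listed positions that are hyper in each library (y axis, percent), for the Hox windows (circles) and for the windows of all protein-coding genes (squares), with all listed positions on the left and without positions that have an opposite call within 50 bp on the right; there is 1 library per point and no error bar. The Hox share lies below that of all gene windows in each library in both panels, between 49.1% and 59.3% on the left.

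Opposite calls often sat on neighbouring bases. In the Hox windows 46.1% of the listed positions of GSC, 56.4% of iPSC 1, 52.1% of iPSC 2, 58.9% of gPSC 1 and 60.9% of gPSC 2 had a position of the other direction within 50 bp. Over all gene windows the share was between 22.4% and 30.6%. Of listed positions 1 bp apart in the Hox windows, 85 of 96 pairs in GSC, 47 of 47 in iPSC 1, 76 of 76 in iPSC 2, 68 of 68 in gPSC 1 and 59 of 60 in gPSC 2 had opposite directions. Between 75.3% and 88.1% of these opposite pairs had differences that summed to within 5 points of 0, so that 1 base was about as far above the reference as its neighbour was below it. There were 255 distinct opposite pairs, 44 of them recurred in 2 or more libraries, and all 44 had the same base hyper each time. The tables give the strand of every position as plus, and the cause of the mirrored calls was not tested. Many of the main counts below are therefore given with and without positions that have an opposite call within 50 bp, and the rest with them only. Without them the hyper share was 67.2% in GSC, 44.2% and 66.5% in iPSC 1 and iPSC 2, and 52.9% and 66.7% in gPSC 1 and gPSC 2, below the 79.5% to 90.5% of all gene windows treated alike.

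The 4 clusters did not have the same balance. In HoxB, GSC listed 67 hyper and 28 hypo positions, iPSC 1 27 and 14, iPSC 2 42 and 33, gPSC 1 32 and 19, and gPSC 2 47 and 23, so hyper positions were in the majority in all 5 libraries. In HoxD the numbers were 78 and 81 in GSC, 37 and 25 in iPSC 1, 72 and 43 in iPSC 2, 43 and 26 in gPSC 1 and 43 and 24 in gPSC 2. HoxD thus had a hyper majority in the 4 pluripotent lines and near-equal numbers in GSC. In HoxA the counts were 72 and 38 in GSC, 27 and 32 in iPSC 1, 48 and 38 in iPSC 2, 45 and 52 in gPSC 1 and 23 and 23 in gPSC 2. In HoxC they were 35 and 26 in GSC, 16 and 40 in iPSC 1, 43 and 30 in iPSC 2, 14 and 22 in gPSC 1 and 23 and 24 in gPSC 2. In both HoxA and HoxC, GSC and iPSC 2 had more hyper than hypo positions, and iPSC 1 and gPSC 1 had fewer. Summed over libraries, the hyper share was 64.8% in HoxB, 57.8% in HoxD, 54.0% in HoxA and 48.0% in HoxC. Over the windows of all protein-coding genes it was 71.8% to 81.7% by library. Without positions that have an opposite call within 50 bp, the majority changed only in HoxC of gPSC 2 (7 hyper, 4 hypo). HoxD of GSC then had 23 hyper and 29 hypo positions.

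**Figure D2:**
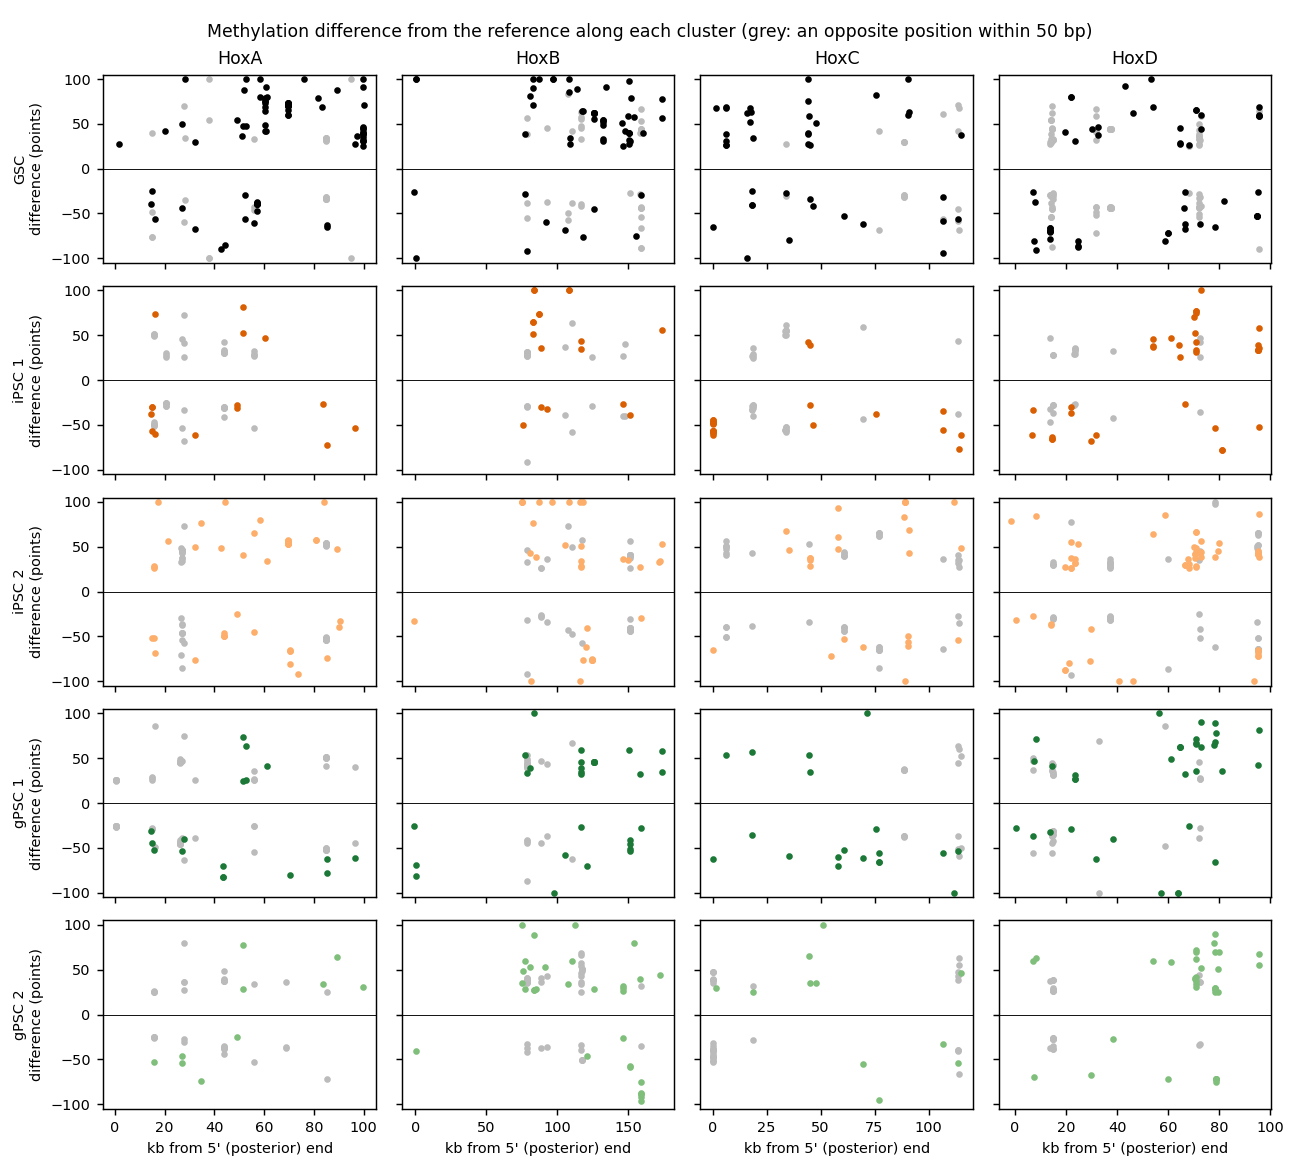
Methylation difference from the reference (y axis, percentage points) of each listed Hox position against its distance from the 5′, posterior end of the cluster (x axis, kb), by cluster (columns) and library (rows); grey points have a call of the other direction within 50 bp. Calls fall in tight columns of points rather than evenly, and many columns hold grey points at mirrored heights above and below 0.

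With the 4 clusters pooled, the hyper share was higher in paralogue groups 1 to 4, at the 3′, anterior end, than in groups 9 to 13, but this order was that of HoxA and HoxD and not of all clusters. Each position was assigned to 1 gene for this count, that of the shortest Hox span holding it or otherwise that with the nearest edge. Pooled, the share for groups 1 to 4 was 68.4% in GSC, 64.5% and 61.0% in iPSC 1 and iPSC 2, and 61.2% and 63.4% in gPSC 1 and gPSC 2. For groups 9 to 13 it was 52.1%, 39.5%, 57.9%, 49.6% and 55.9% in the same order, lower in each library. Groups 5 to 8 had 48.0%, 56.2%, 54.0%, 40% and 55.6%. By cluster, groups 1 to 4 had the higher share in 5 of 5 libraries in HoxA (50% to 82.9% against 40.6% to 55.6%) and in 5 of 5 in HoxD (51.7% to 81.2% against 35.7% to 53.3%). In HoxB they had it in GSC (75% against 60%) and gPSC 1 (69.6% against 63.2%) only, and the order was turned in iPSC 1 (54.5% against 70.6%), iPSC 2 (52.1% against 63.6%) and gPSC 2 (56.4% against 81.0%). In HoxC they had it in iPSC 2 only (66.7% against 62.2%), and the order was turned in GSC (35.7% against 65.6%), iPSC 1 (16.7% against 29.8%), gPSC 1 (36.4% against 40%) and gPSC 2 (50% against 51.5%). In each library most listed positions of groups 1 to 4 were assigned to the group 3 genes Hoxa3, Hoxb3 and Hoxd3 (116 of 206 in GSC). The RefSeq spans of these genes, 44.0, 40.8 and 36.3 kb, run across neighbouring members. The Hoxa3 span runs across Hoxa5 and Hoxa6, so bases just upstream of these 2 genes were counted in groups 1 to 4. The HoxA order rests in part on this assignment. Without the group 3 genes, an alternative chosen after seeing the data, groups 1 to 4 had 66.7%, 63.6%, 58.4%, 59.4% and 50% hyper. Groups 5 to 13 had 50.7%, 42.9%, 56.5%, 47.7% and 55.8%. The pooled order thus held in 4 libraries and turned in gPSC 2. That alternative left out the bases assigned to group 3 and did not move them to a neighbouring gene. Posterior positions were also more often mirrored: summed over libraries, 64.4% of positions in groups 9 to 13, 59.9% in groups 5 to 8 and 41.0% in groups 1 to 4 had an opposite call within 50 bp. Without such positions the hyper share in groups 1 to 4 and in groups 9 to 13 was 80% and 54.2% in GSC, 64.4% and 15% in iPSC 1, 69.2% and 64% in iPSC 2, 66.7% and 40.6% in gPSC 1, and 66.1% and 69.6% in gPSC 2, so the pooled order again held in 4 libraries and turned in gPSC 2. By cluster, leaving them out turned the order only in iPSC 2, in HoxA (63.0% against 63.6%) and in HoxC (66.7% against 75%). By place around the gene, 87.6% of positions lay within a gene span, 6.51% on its 5′ side and 5.90% on its 3′ side, with hyper shares of 55.8%, 53.1% and 71.3%.

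**Figure D3:**
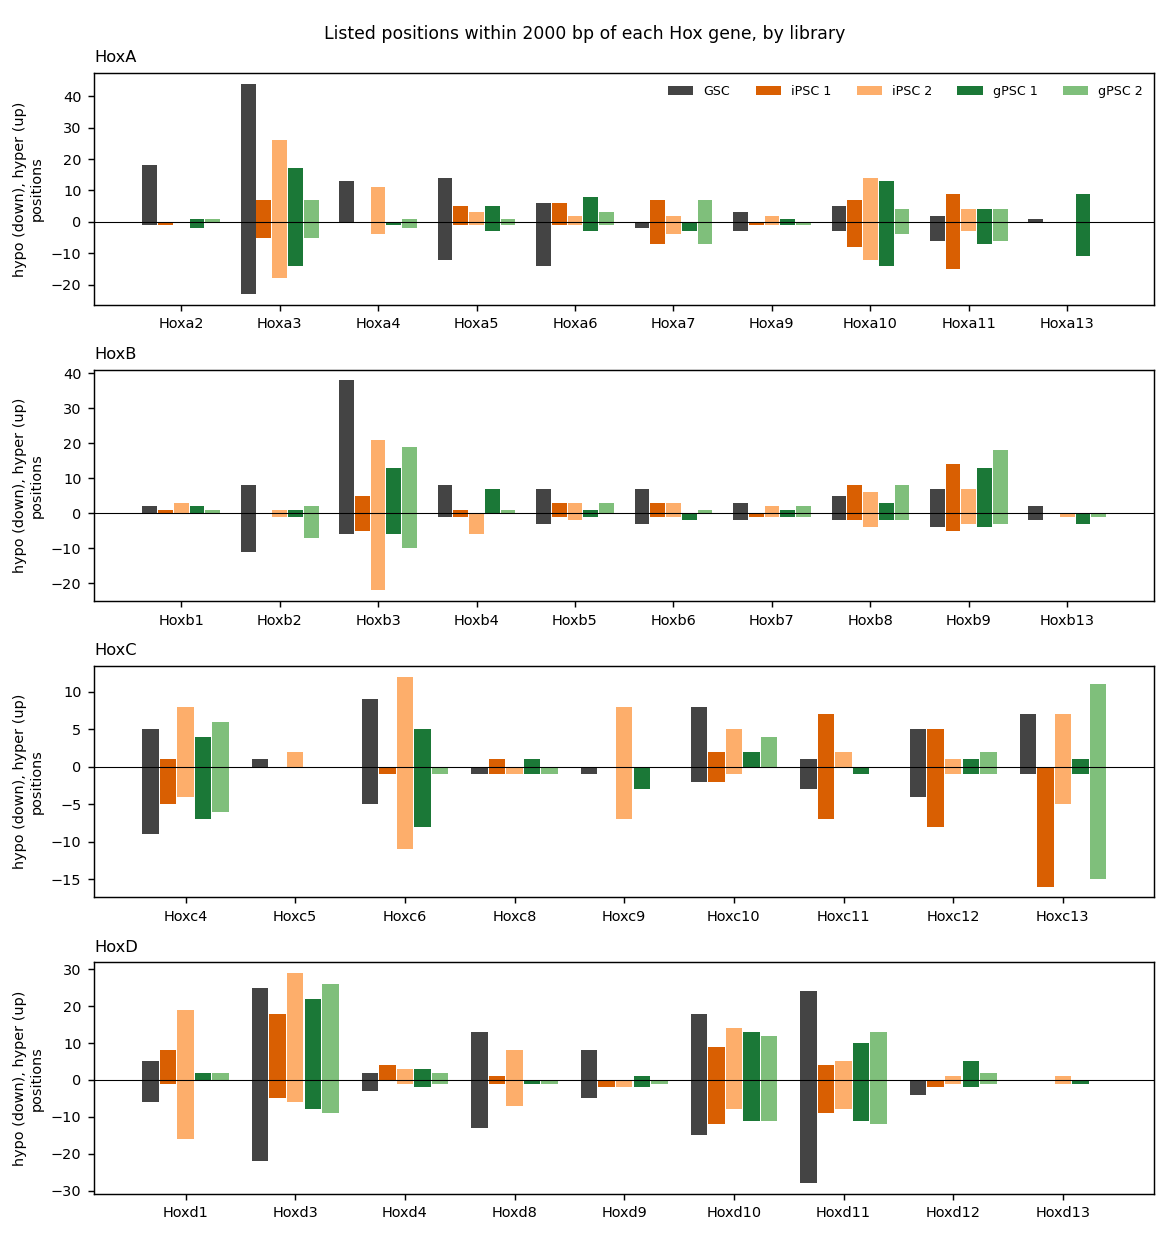
Number of hyper positions (bars up) and hypo positions (bars down) within 2000 bp of each Hox gene, by library and cluster, with genes in paralogue order from anterior to posterior; each bar is 1 library. In GSC the tallest bars up are those of Hoxa3 (44), Hoxb3 (38) and Hoxd3 (25), the tallest bar down is that of Hoxd11 (28), and bars up and down are of like height at Hoxa10.

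A gene was called hyper or hypo in a library when its window held 3 or more positions listed in that direction and these were no less than 80% of all positions listed there. For iPSC and gPSC, a gene counts as called where both lines meet this. In GSC, 6 of the 36 Hox genes with 3 or more listed positions were called hyper (16.7%), namely Hoxa2, Hoxa4, Hoxb3, Hoxb4, Hoxc10 and Hoxc13, where 46.3% of the 15014 protein-coding genes with 3 or more listed positions were called. Hoxd12 was the 1 gene called hypo in GSC (1 of 36, 2.78%, against 3.42% of all genes). No Hox gene was called in both iPSC lines (0 of 36 either way, against 19.4% hyper and 0.3% hypo) or in both gPSC lines (0 of 36 either way, against 26.3% hyper and 0.273% hypo). Hox windows are shorter, with a median of 7.72 kb against 29.9 kb for all genes tested. Among genes with spans of at most 10 kb, a comparison added after seeing the data, the shares called hyper were 35.8% in GSC, 8.66% in iPSC and 12.3% in gPSC, and those of the 30 Hox genes of that size were 16.7% (5 genes), 0% and 0%.

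Mirrored positions bear on these counts. Without positions that have an opposite call within 50 bp, 11 Hox genes were hyper in GSC (30.6%, against 53.4% of all genes) and 3 were hypo (8.33%, against 4.44%). Of the same 36 genes, 2 were then hyper in both iPSC lines (5.56%, against 23.5%), 1 was hypo in both iPSC lines (2.78%, against 0.473%), 1 was hyper in both gPSC lines (2.78%, against 31.6%) and 0 were hypo in both gPSC lines (against 0.326%). The genes hyper in both iPSC lines were Hoxb8 and Hoxb9, the gene hypo in both was Hoxd11, and the gene hyper in both gPSC lines was Hoxb9. Under either count the hyper shares of the Hox genes were below the background, and the hypo counts rest on 3 genes at most.

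Of the 6 genes called hyper in GSC, 4 were in paralogue groups 2 to 4 of HoxA and HoxB. Hoxa2, which specifies the second pharyngeal arch, had 18 hyper and 1 hypo position in GSC (mean difference 40.7 points), 0 and 1 in iPSC 1, none in iPSC 2, 1 and 2 in gPSC 1 and 1 and 0 in gPSC 2. Its hyper positions were a feature of GSC: 15 of them formed an unbroken stretch at chr6:52160911-52161129, on the 3′ side of the gene and inside the non-coding RNA gene Hotairm1, with a mean of 47.2 points, and none of the other 4 libraries listed a position there. Hoxa4, a gene of the neck vertebrae, had 13 hyper and 0 hypo positions in GSC, none in iPSC 1, 11 and 4 in iPSC 2, 0 and 1 in gPSC 1 and 1 and 2 in gPSC 2. All 13 in GSC lay within 66 bp, chr6:52191380-52191445, from 258 to 323 bp after the annotated start, with a mean of 69.6 ± 4.87 points (SD over positions). In iPSC 2, 11 hyper positions at chr6:52191391-52191460 had a mean of 55.3 ± 1.61 points, and the other 3 lines listed none between the ends of the GSC stretch. Positions so close together with near-equal values are not separate measurements, since 1 read can cover several of them.

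Hoxb3, a hindbrain gene, had 38 hyper and 6 hypo positions in GSC (mean 39.1 points), 5 and 5 in iPSC 1 (-0.448), 21 and 22 in iPSC 2 (-6.77), 13 and 6 in gPSC 1 (16.1) and 19 and 10 in gPSC 2 (16.0). Both iPSC lines had as many or more hypo than hyper positions at Hoxb3, and both gPSC lines had more hyper than hypo. At chr11:96310742-96310781, within the Hoxb3 span and given no feature by the authors, GSC had 5 hyper positions and 1 hypo, iPSC 1 had 2 hyper, iPSC 2 had 3, gPSC 1 had 5 and gPSC 2 had 6. The most downstream base of this stretch was hyper in all 5 libraries, by 63.5 points in GSC, 34.9 and 51.2 in iPSC 1 and iPSC 2, and 59.3 and 57.0 in gPSC 1 and gPSC 2. Hoxb4, which acts in the hindbrain and in blood stem cells, had 8 hyper and 1 hypo position in GSC, 1 and 1 in iPSC 1, 0 and 6 in iPSC 2, 7 and 0 in gPSC 1 and 1 and 0 in gPSC 2. The GSC stretch of 8 at chr11:96320050-96320141, annotated Exon in the deposited tables, had a mean of 61.6 points. In gPSC 1, 7 of these positions were listed, each at 46.2 points, and the other 3 lines listed none of them. The 6 hypo positions of iPSC 2 lay elsewhere, at chr11:96318727-96318871, from 460 to 604 bp after the start, with a mean of -76.6 points.

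In HoxC, Hoxc10, a lumbar patterning gene, had 8 hyper and 2 hypo positions in GSC (34.0 points), 2 and 2 in iPSC 1, 5 and 1 in iPSC 2, 2 and 0 in gPSC 1 and 4 and 0 in gPSC 2. Of its GSC positions 6 formed a hyper stretch at chr15:102965395-102965564, 1232 to 1401 bp upstream of the start, and each of the other 4 libraries listed 1 hyper position in that stretch, beside 1 hypo position in iPSC 2. Hoxc13, which is needed for hair and nails, had 7 hyper and 1 hypo position in GSC, 0 and 16 in iPSC 1, 7 and 5 in iPSC 2, 1 and 1 in gPSC 1 and 11 and 15 in gPSC 2. The 16 hypo positions of iPSC 1 lay from 108 to 204 bp after the start, chr15:102921239-102921335, with a mean of -52.9 ± 5.86 points. In gPSC 2 the same interval held 15 hypo and 9 hyper positions, and the last base of the interval was the only one listed in GSC, iPSC 2 and gPSC 1, at -65.0, -65.0 and -62.2 points. The 7 hyper positions of GSC were 6 at chr15:102927207-102927501, far inside the span, and 1 more. Hoxd12, a limb gene, had 0 hyper and 4 hypo positions in GSC (-59.1 points), 0 and 2 in iPSC 1, 1 and 1 in iPSC 2, 5 and 2 in gPSC 1 and 2 and 1 in gPSC 2.

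The other genes with the most listed positions were mixed. Hoxa3, which patterns the third pharyngeal arch and thymus, had 44 hyper and 23 hypo positions in GSC, 7 and 5 in iPSC 1, 26 and 18 in iPSC 2, 17 and 14 in gPSC 1 and 7 and 5 in gPSC 2. Hyper positions were in the majority in all 5 libraries there, with means of 27.5, 7.21, 10.2, 0.12 and 6.34 points. Hoxa10, which acts in the uterus and hindlimb, had 5 and 3 in GSC, 7 and 8 in iPSC 1, 14 and 12 in iPSC 2, 13 and 14 in gPSC 1 and 4 and 4 in gPSC 2, and outside GSC its means lay between -1.43 and 2.74 points. Nearly all of this was mirrored: without positions near an opposite call 4 remained in GSC, 0 and 1 in iPSC 1 and iPSC 2, and 2 and 2 in gPSC 1 and gPSC 2. Hoxa11, a gene of the forearm and uterus, had 2 hyper and 6 hypo positions in GSC, 9 and 15 in iPSC 1, 4 and 3 in iPSC 2, 4 and 7 in gPSC 1 and 4 and 6 in gPSC 2. A hypo stretch of 5 positions in GSC at chr6:52246045-52246270, 235 to 460 bp upstream of Hoxa11, had a mean of -53.2 points, and 3 of the 5 had an opposite call within 50 bp. Between its ends iPSC 1 listed 4 hypo positions, iPSC 2 listed 1, gPSC 1 listed 5 hypo and 3 hyper, and gPSC 2 listed none.

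Hoxb8 and Hoxb9, both genes of the thoracic region, had more hyper than hypo positions in every library. So did the windows of all protein-coding genes, where 71.8% to 81.7% of listed positions were hyper. Hoxb8 had 5 hyper and 2 hypo positions in GSC, 8 and 2 in iPSC 1, 6 and 4 in iPSC 2, 3 and 2 in gPSC 1 and 8 and 2 in gPSC 2, and all 3 CpGs capitalised in its printed promoter were hyper. Hoxb9 had 7 and 4 in GSC, 14 and 5 in iPSC 1, 7 and 3 in iPSC 2, 13 and 4 in gPSC 1 and 18 and 3 in gPSC 2. Its mean difference was 23.8 points in GSC, 24.8 ± 3.94 (SD, n = 2) in iPSC and 28.8 ± 6.24 (SD, n = 2) in gPSC, so the 3 kinds of cell lay within the spread between lines. A stretch at chr11:96272722-96272765, annotated Intron,Promoter by the authors, held 6 hyper positions in iPSC 1 (mean 30.5 points), 6 in gPSC 1 (46.4) and 6 in gPSC 2 (37.3), and none in GSC or iPSC 2. Those 6 positions each had an opposite call within 50 bp, and outside such positions Hoxb9 kept 5 hyper and 2 hypo in GSC, 5 and 1 in iPSC 1, 5 and 1 in iPSC 2, 4 and 0 in gPSC 1 and 9 and 0 in gPSC 2. A single base of Hoxb9, at position 96272679, was hypo by 91.7 points in GSC, iPSC 1 and iPSC 2 and by 86.7 points in gPSC 1.

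Hoxc4, at the anterior end of its cluster, had 5 hyper and 9 hypo positions in GSC, 1 and 5 in iPSC 1, 8 and 4 in iPSC 2, 4 and 7 in gPSC 1 and 6 and 6 in gPSC 2. Only iPSC 2 had more hyper than hypo positions at Hoxc4. Hoxc6, a thoracic gene, had 9 and 5 in GSC, 0 and 1 in iPSC 1, 12 and 11 in iPSC 2, 5 and 8 in gPSC 1 and 0 and 1 in gPSC 2, so its listed positions came almost wholly from 3 libraries. In HoxD, Hoxd3, which shapes the first neck vertebrae, had 25 hyper and 22 hypo positions in GSC, 18 and 5 in iPSC 1, 29 and 6 in iPSC 2, 22 and 8 in gPSC 1 and 26 and 9 in gPSC 2. The mean difference at Hoxd3 was 1.81 points in GSC, 28.4 ± 1.07 (SD, n = 2) in iPSC and 23.0 ± 5.59 (SD, n = 2) in gPSC. All 4 pluripotent lines lay above GSC, between 19.1 and 29.1 points. GSC is 1 library, so this difference has no replicate check on that side.

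Part of the Hoxd3 signal was common to the lines. At chr2:74738981-74739232, 26988 to 27239 bp into the span and annotated Intron, 6 hyper positions were listed in iPSC 1 (mean 56.1 points), 6 in iPSC 2 (46.7), 4 in gPSC 1 (60.2) and 7 in gPSC 2 (49.6), and 2 in GSC (64.9). No hypo position was listed there in any library. A second stretch, chr2:74746372-74746482, was hyper at 8 positions in gPSC 2 (47.7 points), 3 in gPSC 1 (74.2) and 1 in iPSC 2 (39.1), with none in GSC or iPSC 1. Further on, at chr2:74746851-74746886, gPSC 2 alone had 6 hypo positions with a mean of -72.5 points. Hoxd1, at the anterior end, had 5 hyper and 6 hypo positions in GSC, 8 and 1 in iPSC 1, 19 and 16 in iPSC 2, 2 and 0 in gPSC 1 and 2 and 0 in gPSC 2. From 272 to 329 bp after its start, chr2:74763252-74763309, iPSC 1 had 6 hyper positions (34.8 points) and iPSC 2 had 9 (43.3 points), and neither GSC nor either gPSC line had a listed position. In iPSC 2 that stretch was followed by 8 hypo positions at chr2:74763351-74763458 with a mean of -64.9 points.

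The posterior HoxD genes Hoxd10, which patterns hindlimb motor neurons, and Hoxd11 carried many calls of both directions. Hoxd10 had 18 hyper and 15 hypo positions in GSC, 9 and 12 in iPSC 1, 14 and 8 in iPSC 2, 13 and 11 in gPSC 1 and 12 and 11 in gPSC 2, with means between -8.87 and 3.16. Hoxd11 had 24 and 28 in GSC, 4 and 9 in iPSC 1, 5 and 8 in iPSC 2, 10 and 11 in gPSC 1 and 13 and 12 in gPSC 2. The mean at Hoxd11 was -6.13 points in GSC, -18.6 ± 2.49 (SD, n = 2) in iPSC and -0.26 ± 2.25 (SD, n = 2) in gPSC. Just upstream of the sequence printed for Hoxd11, at chr2:74682022-74682059, GSC had 7 hypo positions with a mean of -70.4 ± 3.78 points and no other library had a listed position. Leaving out mirrored positions, Hoxd11 had 1 hyper and 7 hypo positions in GSC, 0 and 3 in iPSC 1, 1 and 4 in iPSC 2, 1 and 1 in gPSC 1 and 0 and 0 in gPSC 2.

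The remaining 21 genes had between 3 and 59 listed positions summed over the libraries. Hoxb1, which specifies the hindbrain segment of the facial nerve, was the only gene among the 38 other than Hoxc5 with hyper positions alone: 2 in GSC, 1 and 3 in iPSC 1 and iPSC 2, and 2 and 1 in gPSC 1 and gPSC 2. Hoxc5 had 1 hyper position in GSC, 2 in iPSC 2 and none elsewhere. Hoxa13 and Hoxd13, which shape the digits, were nearly empty, apart from Hoxa13 in gPSC 1. Hoxa13 had 1 hyper position in GSC and 9 hyper and 11 hypo in gPSC 1. In gPSC 1 every Hoxa13 position had an opposite call within 50 bp. Hoxd13 had 1 of each in iPSC 2 and 1 hypo in gPSC 1. Hoxb13, a gene of the tail end and prostate, had 2 of each in GSC and then only hypo positions, 0 and 1 in iPSC 1 and iPSC 2, and 3 and 1 in gPSC 1 and gPSC 2. Hoxa5 had 14 hyper and 12 hypo positions in GSC, and 9 of the latter formed a stretch at chr6:52203854-52203917 with a mean of -39.9 points in which no other library had a listed position. Hoxb2, a hindbrain gene, had 8 hyper and 11 hypo positions in GSC and 2 and 7 in gPSC 2, where 6 hypo positions at chr11:96353404-96353488 had a mean of -88.3 points. In that interval GSC listed 8 hypo and 6 hyper positions. The first base was at -88.9 points in both GSC and gPSC 2.

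Whether iPSC and gPSC lines differed was tested gene by gene on the number of hyper positions. With 2 lines against 2 the exact two-sided permutation test cannot give a p below 0.333, and over the 15976 genes with a hyper position in any of these 4 lines the smallest Benjamini-Hochberg adjusted p was 1, so no gene could pass. The lines of a kind did not overlap with those of the other kind for 7 of 37 Hox genes tested. Both iPSC lines had more hyper positions at Hoxb6, Hoxc11, Hoxd1 and Hoxd8 (4 of 37, 10.8%, against 4.53% of all genes). Both gPSC lines had more at Hoxa2, Hoxd11 and Hoxd12 (3 of 37, 8.11%, against 12.4%). At Hoxd1 the counts were 8 and 19 in iPSC against 2 and 2 in gPSC, a mean of 13.5 ± 7.78 against 2.0 ± 0 (SD, n = 2 each; exact permutation p = 0.333). At Hoxd11 they were 4 and 5 in iPSC against 10 and 13 in gPSC, 4.5 ± 0.707 against 11.5 ± 2.12 (SD, n = 2 each; exact permutation p = 0.333). At Hoxc11 they were 7 and 2 against 0 and 0, at Hoxd8 1 and 8 against 0 and 0, at Hoxb6 3 and 3 against 0 and 1, at Hoxd12 0 and 1 against 5 and 2, and at Hoxa2 0 and 0 against 1 and 1. At 3 of these 7 genes, Hoxa2, Hoxd8 and Hoxd12, the nearest counts of the 2 kinds were only 1 position apart. Without positions near an opposite call, 3 of the 7 genes stayed apart: Hoxd1 (8 and 9 in iPSC against 2 and 2 in gPSC), Hoxb6 (2 and 2 against 0 and 1) and Hoxd12 (0 and 1 against 2 and 2). The other 4 overlapped: Hoxd11 had 0 and 1 in iPSC against 1 and 0 in gPSC, Hoxd8 had 0 in all 4 lines, Hoxc11 had 0 and 2 against 0 and 0, and Hoxa2 had 0 and 0 against 0 and 1. Other genes came apart in that count: Hoxa11 (1 and 4 in iPSC against 0 and 0 in gPSC) and Hoxb4 (0 and 0 against 7 and 1). Hoxc12 and Hoxc13 did so too, each with 0 and 0 against 1 and 1. In all, 3 Hox genes then had more hyper positions in both iPSC lines and 4 had fewer. The share over all genes was not counted in this way.

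The question named in the series title, whether reprogrammed cells keep marks of their origin, was put to the Hox positions by asking how many hyper positions of GSC were hyper again in each line. Of the 252, iPSC 1 listed 21 (8.33%, Wilson 95% interval 5.51 to 12.4), iPSC 2 58 (23.0%, 18.2 to 28.6), gPSC 1 53 (21.0%, 16.5 to 26.5) and gPSC 2 33 (13.1%, 9.48 to 17.8). The intervals cover counting error only, and neighbouring positions share reads. The mean share was 15.7 ± 10.4% (SD, n = 2) in iPSC and 17.1 ± 5.61% (SD, n = 2) in gPSC, a difference smaller than the spread within either kind. Without positions near an opposite call the mean shares were 11% in iPSC and 10.1% in gPSC. Over all listed positions the shares were 32.7% and 35.5% in iPSC 1 and iPSC 2, and 42.1% and 37.7% in gPSC 1 and gPSC 2, above the Hox share in each line. For hypo positions the Hox shares were 17.3%, 21.4%, 24.9% and 12.1% in the same order, and the shares over all positions were 18.3%, 20.4%, 25.2% and 13.5%, each inside the Wilson interval of the Hox share. By cluster, the share of hyper positions found again ran from 8.97% to 11.5% in HoxD in the 4 lines. In HoxA it was 5.56% and 30.6% in iPSC 1 and iPSC 2, and 19.4% and 4.17% in gPSC 1 and gPSC 2, so 1 line of each kind was high and 1 low. The high lines also listed more hyper HoxA positions, 48 in iPSC 2 and 45 in gPSC 1, against 27 in iPSC 1 and 23 in gPSC 2. The stretch in Hoxa4 described above accounts for 10 of the 22 HoxA positions found again in iPSC 2.

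**Figure D4:**
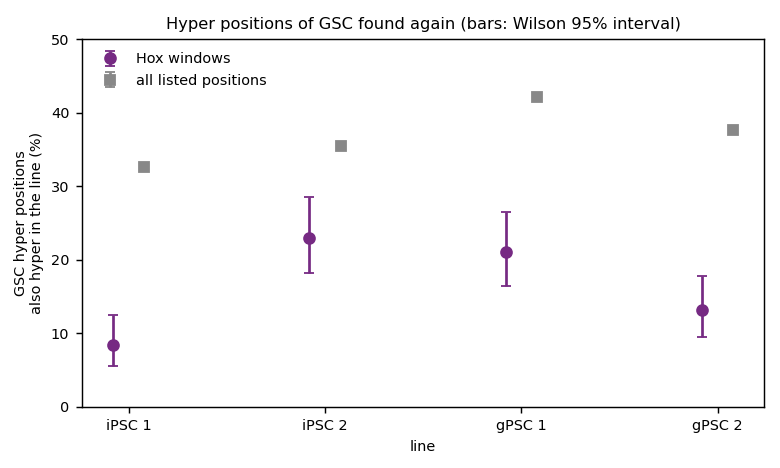
Share of the hyper positions of GSC that are hyper again in each pluripotent line (y axis, percent), for the Hox windows (circles) and all listed positions (squares); bars are Wilson 95% intervals for counting error. The Hox shares lie between 8.33% and 23.0%, below the 32.7% to 42.1% of all positions, and the iPSC and gPSC lines overlap.

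Most Hox positions were listed in a single library. Of the 1005 positions 718 (71.4%) were listed in 1 library and 20 (1.99%) in all 5, against 52.9% and 7.35% of all 448072 positions. Of the 287 Hox positions listed in 2 or more libraries 163 were hyper and 123 hypo each time, and 1 had both directions. The 20 positions listed in all 5 libraries were 10 hyper and 10 hypo, and 7 and 8 of these had an opposite call 1 bp away in at least 1 library. By the assignment of each position to 1 gene described above, they belonged to Hoxa3, Hoxa10, Hoxb3, Hoxb5, Hoxb7, Hoxc4, Hoxc8, Hoxd3 and Hoxd11. Among those without a mirrored neighbour, 2 in the Hoxd3 stretch were hyper by 61.7 to 77.0 points, and 1 of Hoxa3 at position 52209539 was hyper by 47.2 points in GSC, 82.1 and 40.9 in iPSC 1 and iPSC 2, and 74.2 and 78.1 in gPSC 1 and gPSC 2. Another base of Hoxa3, at position 52175513, was hypo by 64.7 to 78.1 points. The base assigned to Hoxa3 at position 52204823 has a mirrored neighbour and also lies in the stretch printed upstream of Hoxa5. A position called against the same reference in all 5 libraries can come from that 1 library.

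**Figure D5:**
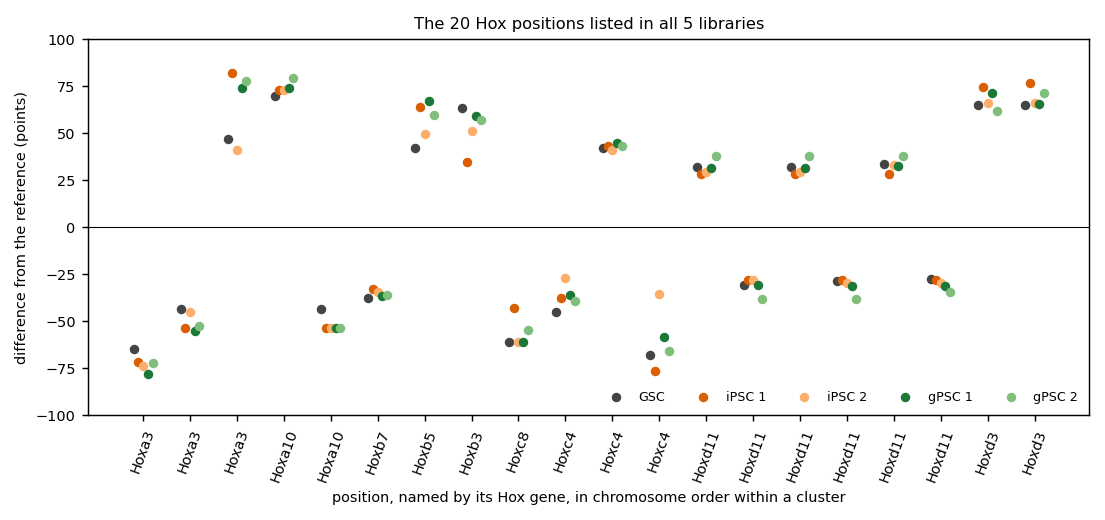
Difference from the reference (y axis, percentage points) of the 20 Hox positions listed in all 5 libraries, named by gene on the x axis, with 1 point per library. There are 10 positions above 0 and 10 below, and the 6 of Hoxd11 form mirrored pairs near 30 points above and below 0.

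The 5 microRNA genes of the miR-10 and miR-196 families in the mouse Hox clusters were examined, and both families are known to act on Hox messages. Their mature 5p strands are printed 5′ to 3′ from RefSeq (GRCm38.p6), with the seed, bases 2 to 8, in capitals, to show that miR-10a and miR-10b share 1 seed and miR-196a and miR-196b another.
miR-10a-5p: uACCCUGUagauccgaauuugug
miR-10b-5p: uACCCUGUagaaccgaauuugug
miR-196a-5p: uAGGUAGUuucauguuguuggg
miR-196b-5p: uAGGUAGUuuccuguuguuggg

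Within 2000 bp of Mir196a-1, upstream of Hoxb9 at chr11:96265164-96265265, GSC listed 6 hyper and 0 hypo positions (mean 73.5 points), iPSC 1 1 and 1, iPSC 2 5 and 0 (48.8), gPSC 1 5 and 0 (53.8) and gPSC 2 3 and 0 (44.7). Hyper positions were thus listed near this gene in all 5 libraries. Around Mir10a, between Hoxb4 and Hoxb5 at chr11:96317165-96317274, the only calls were 1 of each direction in iPSC 1 and 6 hypo positions in iPSC 2, which are the 6 of Hoxb4 given above. Mir10b in HoxD (chr2:74726070-74726137) had 1 hypo position in GSC, 1 hyper in iPSC 2 and 2 of each in gPSC 1. Mir196b in HoxA had at most 1 of each direction in a library, and Mir196a-2 in HoxC had 1 hyper position, in gPSC 2.

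Genes that act on, with or beside the clusters were taken from 5 textbook lists and called by the same rule, and all their symbols matched. Of the 15014 protein-coding genes with 3 or more listed positions, 46.3% were hyper in GSC. The lists count every matched gene, also non-coding ones and those with fewer positions, so the denominators are unlike. In GSC, 4 of 9 TALE cofactors, 7 of 10 Cdx and retinoic acid genes and 7 of 21 Polycomb and Trithorax genes were hyper. So were 3 of 16 cluster neighbours and non-coding RNAs and 2 of 9 ParaHox and Dlx genes. In both iPSC lines the numbers were 1, 2, 1, 1 and 0 in the same order, against 19.4% of the 15014 genes. In both gPSC lines they were 2, 1, 3, 1 and 1, against 26.3%. Only 2 genes of the lists were hypo in GSC, Bmi1 and Kdm6a, a Polycomb subunit and a histone demethylase, and none was hypo in both lines of a kind.

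Among the TALE cofactors, Pknox2 and Pbx2 were called in GSC, with means of 57.8 and 45.7 points, and Meis3 in GSC and both gPSC lines (65.1 points, and 42.2 ± 3.1, SD, n = 2). Cyp26c1, which degrades retinoic acid, had 26 hyper and 0 hypo positions in GSC (73.4 points), 3 and 0 in iPSC 1, 4 and 0 in iPSC 2, 2 and 1 in gPSC 1 and 6 and 0 in gPSC 2. Rarb, a retinoic acid receptor, was hyper in GSC (59.9 points) and both iPSC lines (49.9 ± 0.3, SD, n = 2), Cdx1 in GSC (65.9 points) and both gPSC lines (49.6 ± 17.0, SD, n = 2), and Rarg in GSC alone (62.9 points).

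The Polycomb and Trithorax genes called hyper included Kdm6b, a demethylase of the Polycomb mark (GSC 45.9 points; both gPSC lines 36.9 ± 6.3, SD, n = 2), Jarid2 (52.0 points in GSC) and Kmt2a, a Trithorax methyltransferase (78.5 points in GSC). Ash1l, named after its values were seen, was the 1 gene of this list called hyper in GSC, both iPSC and both gPSC lines, with 7, 10, 11, 14 and 4 hyper positions in the order GSC, iPSC 1, iPSC 2, gPSC 1, gPSC 2 and at most 1 hypo in each. Beside the clusters, Skap1, a signalling adaptor gene next to HoxB, had 59 hyper and 2 hypo positions in GSC, 51 and 0 in iPSC 1, 45 and 8 in iPSC 2, 44 and 1 in gPSC 1 and 53 and 0 in gPSC 2. It was hyper in every library. HoxB had a hyper majority in each library, from 56% in iPSC 2 to 70.5% in GSC. In each library this was below the share of all gene windows (71.8% in iPSC 2 and 77.0% in GSC). Hoxb1, the HoxB gene nearest to Skap1, had hyper positions alone, at 4 distinct positions. A link between Skap1 and HoxB was not tested. Evx1, a homeobox gene at the 5′ end of HoxA, had 9 and 2 in GSC (42.7 points), and Hotairm1 16 and 0 in GSC and 1 and 0 in gPSC 2. Of the ParaHox and Dlx genes, Dlx4 was hyper in GSC (33.7 points) and both gPSC lines (44.0 ± 4.0, SD, n = 2), and Dlx6 in GSC with 4 hyper and 1 hypo position (9.8 points).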

How the data were processed

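Reduced representation bisulfite sequencing was done on 6 lines, and 10 tables of 5 lines were used; the ESC line has none. Per the submitters' processing notes, the tools were methylKit, Bismark, GATK and Bowtie2, and the builds GRCm38 and mm10. The sources used here give no versions, roles, coverage minimums or strand merging. For each listed position the authors deposited their own p-value and q-value. The methylation difference from the reference, in percent points, was also deposited by the authors. The largest q was 0.01 and the smallest absolute difference 25 points, tested on the tables. Coverage is unknown, so no interval for a position is given.

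Positions were matched to gene spans of a RefSeq table (GRCm38.p6) extended by 2000 bp. Calls, shares and the exact permutation test over 4 lines, adjusted by Benjamini-Hochberg over all genes tested, are defined in the report, and values of a kind of line are given as mean ± SD of its 2 lines. The permutation p-values measure only the spread between the lines deposited. A stretch, or run, is 5 or more positions of 1 direction, at most 200 bp apart, with no opposite position between. Genes given with full values are the 3 of each cluster with the most listed positions and every gene called; of the other lists, up to 4 called members each by number of positions. Members, lists and rules were chosen with earlier results of these data known. The gene that meets the rule but is not among the 38, and 2 members of the other lists, are not reported here. The calling was run on simulated data of 2000 genes. In both iPSC lines 100% of planted hyper and hypo genes were recovered with 0 false calls. Planted genes had all positions in 1 direction, alike in every library, and the other genes could not meet the rule. The outcome was therefore fixed by the rule, and it gives no error rate for real data. Alternatives changed the window, difference, q, number of positions, mirrored positions, lines and line pairing. Work was done in Python 3.11.15 with pandas 2.3.3, numpy 2.4.6, scipy 1.17.1 and matplotlib 3.10.9.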

Additional observations from a re-analysis of the deposited data

Results flagged for a closer look

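At Hoxb3 the mean listed difference was negative in both iPSC lines, -0.448 points in iPSC 1 (10 positions) and -6.77 in iPSC 2 (43 positions), and positive in both gPSC lines, 16.1 points in gPSC 1 (19 positions) and 16.0 in gPSC 2 (29 positions). The means of the 2 kinds were -3.61 and 16.1 points, so iPSC minus gPSC was -19.7 points. At Hoxb4 the means were -1.55 points in iPSC 1 (2 positions) and -76.6 in iPSC 2 (6 positions) against 46.2 in gPSC 1 (7 positions) and 28.9 in gPSC 2 (1 position), and iPSC minus gPSC was -76.6 points. Both genes are listed here because the mean was below 0 in every iPSC line and above 0 in every gPSC line. iPSC 1 was balanced at both, with 5 hyper and 5 hypo positions at Hoxb3 and 1 of each at Hoxb4, and without positions near an opposite call it had 2 of each at Hoxb3 and none at Hoxb4. The difference was not tested. The Hoxb4 span lies inside that of Hoxb3, so the same positions count in both, and the Hoxb4 values of 2 lines rest on 1 and 2 positions.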

How the results depend on the processing

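Over 16 results and 156 alternative values, 90 kept their value within 1.5 times or 1 SD. The alternatives were counted on the Hox genes alone. Only the calls without positions within 50 bp of an opposite one have a share over all genes, given above. For the other alternative counts, whether all genes shift in the same way was not tested. The order of iPSC and gPSC turned under some settings: GSC hyper positions found again were 15.7% in iPSC against 17.1% in gPSC as reported, 12.9% against 10% when only differences from 50 points up were kept and 11.04% against 10.1% without positions within 50 bp of an opposite one. Genes with more and with fewer hyper positions in iPSC were 4 and 3 as reported, but 2 and 3 (50 points), 3 and 5 (q of at most 0.001), 3 and 4 (50 bp) and 7 and 10 (without iPSC 2). Mean hyper positions, 156 in iPSC and 135 in gPSC, were 107 and 135 without iPSC 2. The cause of the changes was not tested, except that stricter settings leave fewer positions. In the order GSC, iPSC, gPSC, a difference of at least 50 points left 120, 59 and 40 hyper and 72, 61 and 41.5 hypo Hox positions, with 10 genes hyper in GSC, 2 genes with more hyper positions in both iPSC lines, and 10% of GSC hyper positions found again in gPSC. With q of at most 0.001 there were 161, 99.5 and 88.5 hyper and 97, 77 and 66.5 hypo positions, 2 genes were hyper in iPSC and 5 had fewer hyper positions in iPSC. Without positions 1 bp from an opposite one, hyper positions were 99.5 in iPSC and 75.5 in gPSC and hypo 94, 71 and 46.5, with 4 genes hypo in GSC, 1 hyper and 1 hypo in iPSC and 1 hyper in gPSC. Without positions within 50 bp of an opposite one, there were 154, 76.5 and 57.5 hyper and 75, 54.5 and 39.5 hypo positions. Calls were then 11 hyper and 3 hypo in GSC, 2 and 1 in iPSC and 1 hyper in gPSC, and 10.1% of GSC hyper positions were found again in gPSC. In the gene span alone 2 genes were hypo in GSC, 1 was hyper in iPSC and 7 had more hyper positions in iPSC. With the wider window 0 were hypo in GSC, 1 was hyper in iPSC and 1 in gPSC. With 1 position enough for a call 4 genes were hypo in GSC, 1 hyper and 1 hypo in iPSC, and 4 hyper and 2 hypo in gPSC. With 5 positions needed, 0 were hypo in GSC.

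With each line left out in turn, 3 to 5 genes were hyper and 1 to 2 hypo in the remaining iPSC line, and 1 to 4 hyper and 0 to 3 hypo in the remaining gPSC line. Genes with more hyper positions in iPSC then numbered 7 to 18 and genes with fewer 6 to 10. The 18 came without iPSC 1 and the 10 without iPSC 2.

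The line numbers do not pair the lines: the labels call the lines independent, and deviations of iPSC 1 and gPSC 1 over 15976 genes correlated at -0.142. With the replicate block, pairing line 1 with line 1, 5 Hox genes had more and 7 had fewer hyper positions in iPSC in both pairs, and with the numbers crossed, a choice made after seeing the data, 5 and 4. The smallest p of 2 pairs is 0.5.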
